A study of Mus musculus with 12 samples.

Results

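Collagen genes were taken as the 44 protein-coding genes of the deposited count table whose mouse symbol is Col, a number, the letter a and a number, out of 45706 genes in the table. By the structure their proteins build they are 11 fibrillar collagens, 8 collagens of basement membranes and 25 others, the last made up of 6 beaded filament, 9 fibril-associated, 4 transmembrane, 3 short-chain network and 3 remaining collagens. The rule uses symbols and no measured value.

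RNA had been sequenced from 4 groups of cultured mouse cells with 3 libraries each, made on different days. All were derived from C57BL/6 embryonic stem cells (ESCs) with GFP knocked in at 1 copy of Sox1, the gene of an early neural transcription factor, so that GFP reports Sox1 promoter activity. Baseline is the group of neural progenitor cells (NPCs), glial progenitors that the labels give as Sox1 negative and unsorted. Sox1posGP is the group of NPCs in which the activator dCas9-VP64 was guided to the Sox1 promoter and which were then sorted for Sox1. The group labelled NSC holds unsorted neuroepithelial cells made by neural differentiation of ESCs, and the group labelled NR holds GFP-sorted neural rosettes. The lines with dCas9-VP64 were clonal, but which lines gave the Baseline and Sox1posGP libraries, and whether Baseline cells carried the activator or guides, is not stated. The study gives NeuroCult Proliferation medium for NPCs, NSCs and NRs alike, and laminin-coated dishes without naming a cell type. To expand NPCs, bFGF, EGF and laminin were added to the medium, and for NSC and NR no such supplements are stated. Cell type and culture therefore cannot be told apart in comparisons of NSC or NR with Baseline.

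Collagens are secreted or membrane-bound proteins of 3 chains wound into a triple helix, which needs glycine at regular steps along each chain. Fibrillar collagens form the tensile fibrils of connective tissue, type IV chains form the mesh of basement membranes to which type XV and type XVIII collagens also belong, and the other classes coat fibrils, form beaded filaments, anchor layers or span the cell membrane. In the embryonic brain, type IV collagen is best known from the basement membrane under the pia and around vessels, and fibrillar collagens from the mesenchyme of the meninges.

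Sox1 stood at 4.83, 6 and 5.43 CPM (counts scaled to a common library total after TMM) in Baseline and at 20.3, 20.9 and 21.7 CPM in Sox1posGP, and the groups did not overlap (log2 fold change 1.97, standard error 0.43, adjusted p = 0.00221, here and throughout by the quasi-likelihood test of edgeR after Benjamini and Hochberg). It stood at 48.6, 65 and 51.8 CPM in the libraries labelled NSC and at 4.62, 20 and 19.2 CPM in those labelled NR, so that NR replicate 1 lay at the level of Baseline although the label gives the cells as GFP-sorted. All 6 markers of pluripotent cells were higher in NR than in NSC, led by Zfp42 at 510.5, 293 and 346 CPM against 20.6, 8.53 and 21.7 CPM. All 6 markers of neural stem cells and all 6 of neurons were lower. Of all genes 29.5% were higher and 25.8% lower. The pluripotent and neural stem cell markers go against the label of sorted rosettes, and the neuron markers do not decide it. The names NSC and NR below stand for what the labels say. Total counts ran from 4939268 to 18351483 in Baseline, from 3407066 to 6315574 in Sox1posGP, from 29046205 to 43095688 in NSC and from 16707006 to 34594885 in NR.

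Replicate 2 of NSC and replicate 2 of NR stood apart from the other libraries of their groups in collagen levels. Of 42 collagen genes with more than 3 counts in every NSC and NR library, 12 were under 0.5 times the mean of replicates 1 and 3 in both groups, against 2.40% of 15933 tested genes. They were Col1a1, Col1a2, Col3a1, Col5a3, Col24a1, Col6a1, Col6a2, Col6a3, Col12a1, Col14a1, Col16a1 and Col28a1. The ratio was 0.214 in NSC and 0.111 in NR for Col1a2, and 0.0708 and 0.132 for Col6a3, a chain of the beaded filaments. Among the genes at or above 1 in both groups were Col4a1 (1.01 and 1.3), Col4a2 (1.03 and 1.501), Col18a1 (1.09 and 1.01) and the cartilage collagen Col2a1 (1.17 and 2.58). Several of these ratios were near 1, and no share over all genes was computed for them. Dcn, a proteoglycan gene of fibroblasts, was low in the same libraries at 141, 25.9 and 128 CPM in NSC and 190.2, 23.3 and 121 CPM in NR, and so was Lum at 52.1, 3.63 and 46.3 CPM and 106, 26.4 and 76 CPM, while smooth muscle actin Acta2 was high there at 143, 880.1 and 141 CPM and 275, 696 and 206 CPM. The other mesenchymal markers were mixed. By the same ratio, Twist1 was over 1 in NSC and NR (1.43 and 1.55), and Twist2 in NR only (0.506 and 1.13). Under 1 in both were Pdgfra (0.239 and 0.773), Pdgfrb (0.319 and 0.9), Prrx1 (0.296 and 0.432), Tbx18 (0.145 and 0.528) and Thy1 (0.0407 and 0.121).

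**Figure D1:**
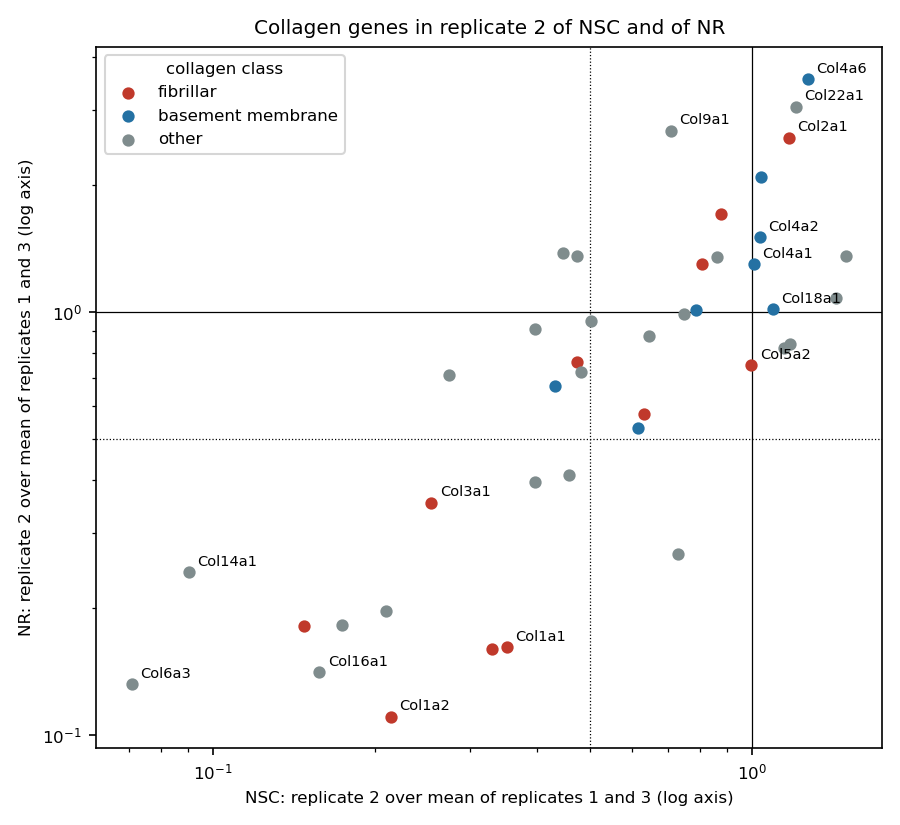
Level of each collagen gene in replicate 2 over the mean of replicates 1 and 3, for the libraries labelled NSC (horizontal, log axis) and NR (vertical, log axis), with 1 point per gene coloured by class, solid lines at 1 and dotted lines at 0.5. The 12 genes in the lower left, with Col1a1, Col1a2, Col3a1 and Col6a3 among them, lay under 0.5 in both groups, and Col4a1, Col4a2 and Col18a1 lay at or above 1.

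The 10 markers of mesenchymal cells and fibroblasts summed to 36.9 to 40.04 CPM in Baseline, 37.9 to 42.9 CPM in Sox1posGP, 399 to 958 CPM in NSC and 497 to 832 CPM in NR, with Acta2 the largest in NSC and NR and none of them at 0 in every library of a group. Of the 10, 1 was higher in Sox1posGP than in Baseline, 7 in NSC and 8 in NR. In bulk RNA more cells of a type and more RNA per cell cannot be told apart, and the part of such cells in the collagen levels was not tested. Of the other lists, 6 of 6 endothelial markers, 4 of 4 tested of cartilage, 5 of 6 of neurons and 5 of 6 of pluripotent cells were higher in both NSC and NR. Of all genes 42.7% and 44.2% were higher there. In Baseline the cartilage list summed to only 0 to 0.656 CPM and the endothelial list to 0.417 to 2.09 CPM. A marker with at most 3 counts in every Baseline library passed the filter on low counts through the groups where it was high. Its direction was given by that choice. Of 5 tested markers of neural crest 3 were higher and 2 lower in each of NSC and NR. Their summed level was 299 to 332 CPM in Baseline, 72.3 to 94.4 CPM in NSC and 65.4 to 82.5 CPM in NR. Of 5 of endoderm 3 were higher and 1 lower in NSC and 4 and 0 in NR. The sixth pluripotency marker was lower in NSC. Of 6 of radial glia and astrocytes 1 was higher and 5 lower in each.

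The coding sequences set the fibrillar class apart. In the longest coding sequence of each gene, the longest unbroken row of 3-codon repeats (triplets) that each begin with a glycine codon (GGN) was 216 to 344 triplets in the 11 fibrillar genes, 30 to 66 in the 8 basement membrane genes, 37 to 87 in the 6 beaded filament genes and 32 to 113 in the 9 fibril-associated genes. The ranges of the other classes overlapped. Shown are 120 bases of coding sequence of Col1a1, from the start of its row of 338 triplets, and 120 bases of Col4a1 across the end of its longest row of 40, where the repeat is interrupted and resumes. They are bases 502 to 621 and 3994 to 4113 counted from the start codon in the GENCODE M21 transcripts, with every glycine codon in capitals.
Col1a1: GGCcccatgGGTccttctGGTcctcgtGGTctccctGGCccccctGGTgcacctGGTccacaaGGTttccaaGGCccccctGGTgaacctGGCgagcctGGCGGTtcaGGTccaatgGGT
Col4a1: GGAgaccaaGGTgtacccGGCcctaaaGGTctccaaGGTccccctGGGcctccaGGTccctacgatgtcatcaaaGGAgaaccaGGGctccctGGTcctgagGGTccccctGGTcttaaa

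The type IV genes lie in head-to-head pairs. On chromosome 8 of GRCm38 (mm10), the 5′ ends of Col4a1 on the minus strand and Col4a2 on the plus strand overlapped by 22 bases in GENCODE M21, while the 5′ ends of Col4a4 and Col4a3 on chromosome 1 were 71 bases apart and those of Col4a6 and Col4a5 on chromosome X 1308 bases apart. The promoter windows of Col4a1 and Col4a2 are shown because both genes changed in Sox1posGP, that of Col23a1 because it had the largest rise there, and that of Col28a1 because it moved in opposite directions in Sox1posGP and in NSC and NR. RefSeq windows for GRCm38.p6 (250 bases before to 50 after the start) matched 35 of the 44 genes. Capitals mark the 78 bases that both type IV windows share at chr8:11312777-11312854, the GC box (GGGCGG on either strand) in Col23a1 and the Sox motif (ACAAAG or ACAATG on either strand) in Col28a1. The windows are chr8:11312777-11313076 on the minus strand, chr8:11312555-11312854 on the plus strand, chr11:51289670-51289969 on the plus strand and chr6:8192568-8192867 on the minus strand.
Col4a1: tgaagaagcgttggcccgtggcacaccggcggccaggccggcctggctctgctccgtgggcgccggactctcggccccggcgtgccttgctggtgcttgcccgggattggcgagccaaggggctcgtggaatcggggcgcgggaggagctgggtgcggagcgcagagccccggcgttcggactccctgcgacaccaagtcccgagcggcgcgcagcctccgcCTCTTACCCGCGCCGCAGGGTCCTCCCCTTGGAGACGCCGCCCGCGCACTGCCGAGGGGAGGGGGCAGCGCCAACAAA
Col4a2: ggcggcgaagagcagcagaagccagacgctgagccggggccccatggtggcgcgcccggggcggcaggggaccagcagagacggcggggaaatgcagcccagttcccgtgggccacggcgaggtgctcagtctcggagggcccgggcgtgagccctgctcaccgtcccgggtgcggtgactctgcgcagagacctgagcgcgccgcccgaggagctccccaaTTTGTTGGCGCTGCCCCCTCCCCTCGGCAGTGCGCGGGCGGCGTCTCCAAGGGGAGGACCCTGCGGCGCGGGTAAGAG
Col23a1: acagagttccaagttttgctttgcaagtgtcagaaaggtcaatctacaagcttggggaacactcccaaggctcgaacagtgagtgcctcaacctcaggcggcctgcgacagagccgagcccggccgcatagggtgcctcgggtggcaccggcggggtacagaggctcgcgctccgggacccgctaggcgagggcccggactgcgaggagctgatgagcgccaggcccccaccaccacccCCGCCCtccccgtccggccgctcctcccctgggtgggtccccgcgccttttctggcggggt
Col28a1: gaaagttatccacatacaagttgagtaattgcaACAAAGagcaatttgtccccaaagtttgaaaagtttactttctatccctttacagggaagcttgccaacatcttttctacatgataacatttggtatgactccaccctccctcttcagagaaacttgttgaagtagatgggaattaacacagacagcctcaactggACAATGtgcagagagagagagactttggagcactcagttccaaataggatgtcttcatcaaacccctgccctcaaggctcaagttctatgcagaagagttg
The GC box was in the window of 22 of the 35 collagen genes, against 35.7% of all 32851 windows, the CCAAT box in 13 (37.4%), TATAAA in 5 (13.6%) and the Sox motif in 5 (28.6%), namely Col3a1, Col10a1, Col17a1, Col20a1 and Col28a1. These are matches of letters and were not tested for binding.

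Collagen transcripts were scarce in NPCs and abundant in the libraries labelled NSC and NR. All 44 genes together took 0.0123 to 0.0157% of the counts in Baseline, 0.0303 to 0.0347% in Sox1posGP, 0.293 to 0.617% in NSC and 0.388 to 0.979% in NR. Summed over the 11 fibrillar genes the level was 52.9, 58.5 and 57.6 CPM in Baseline, 82.8, 94.5 and 108 CPM in Sox1posGP, 3897, 1482 and 3810 CPM in NSC and 7813, 2169 and 5339 CPM in NR. The 8 basement membrane genes summed to 44, 53.9 and 59.7 CPM in Baseline, 158, 179 and 164 CPM in Sox1posGP, 1216, 1233 and 1120 CPM in NSC and 1193, 1270 and 1004 CPM in NR. In Baseline the sums of these classes overlapped, in Sox1posGP the basement membrane sum was above the fibrillar sum in every library, and in NSC and NR the order was the reverse. The order in Sox1posGP rested on 1 gene, as Col4a1 alone gave 117, 140.5 and 120.4 CPM of the basement membrane sum. Col4a4 and Col18a1 of the same class were called lower there. The 25 others summed to 38.2 to 44.9 CPM in Baseline, 57.6 to 68.4 CPM in Sox1posGP, 221 to 839 CPM in NSC and 357 to 1067 CPM in NR.

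**Figure D2:**
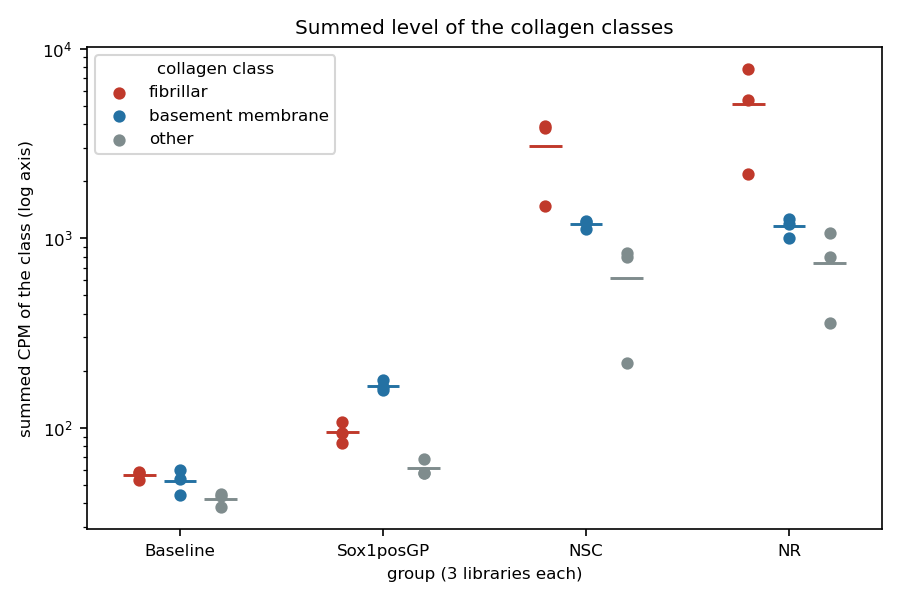
Summed level of the fibrillar, basement membrane and other collagen genes in each library (vertical, CPM on a log axis) for the 4 groups (horizontal), with 1 point per library and a bar at the mean of 3. The basement membrane sum of Sox1posGP, 158 to 179 CPM, lay above its fibrillar sum of 82.8 to 108 CPM, with 117 to 140.5 CPM of it from Col4a1 alone. In NSC and NR the fibrillar points lay highest with replicate 2 lowest among them.

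Per kilobase of the transcript with the longest coding sequence, Col4a1 had the highest mean level in Baseline (3.81 CPM per kb), followed by Col9a3 (2.73), Col20a1 (2.09), Col4a5 (2.04) and Col5a1 (1.63). In Sox1posGP Col4a1 was again first at 19 CPM per kb, with Col5a1 (5.08), Col9a3 (4.91), Col28a1 (3.13) and Col3a1 (3.08) next. The order in NSC was led by Col3a1 (202 CPM per kb), Col1a1 (143), Col18a1 (100.9) and Col1a2 (83.2), and in NR by Col3a1 (312), Col1a1 (310.5), Col1a2 (161) and Col18a1 (128). Levels of neighbours in these orders overlapped between libraries in several places, as for Col1a1 and Col3a1 in NSC and NR. At most 3 counts in every library, the floor used here, were found for 12 of the 44 genes in Baseline and for 14 in Sox1posGP. None of the genes was at the floor in NSC or NR, where the libraries were mostly deeper.

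**Figure D3:**
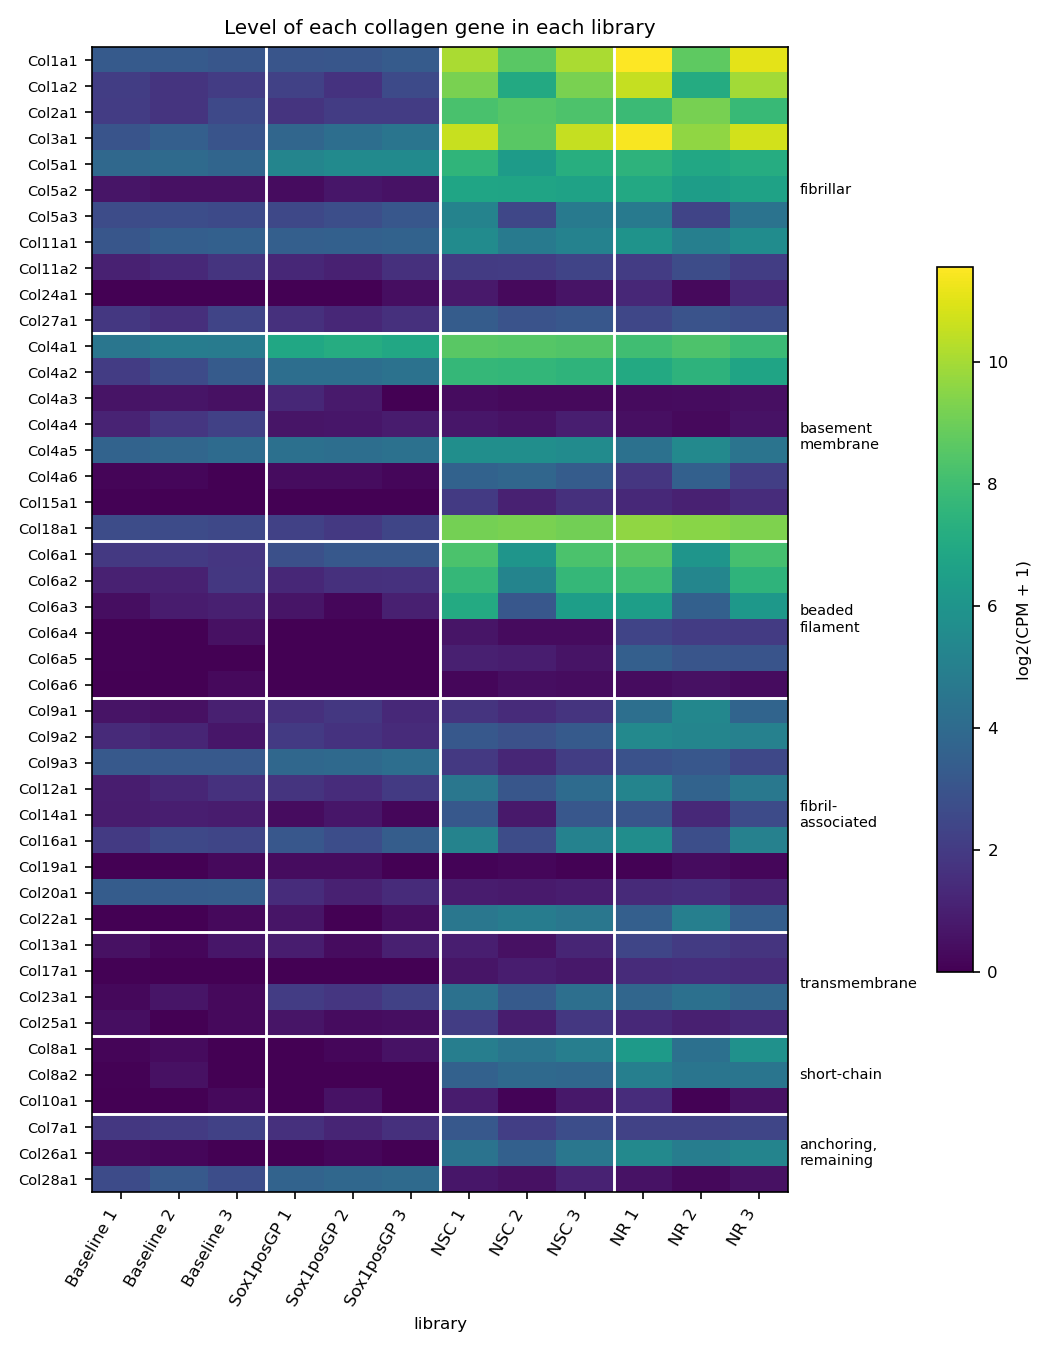
Level of each of the 44 collagen genes (rows, grouped by class) in each of the 12 libraries (columns) as log2(CPM + 1), from dark to bright. Most rows are dark in Baseline and Sox1posGP, with Col4a1 the brightest there. Col1a1 and Col3a1 are brightest in replicates 1 and 3 of NSC and NR, and darker in replicate 2 of each.

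Sox1posGP was compared with Baseline, the comparison of NPCs with and without Sox1 activation. The groups also differ in sorting, and may differ in line, activator and guides, and these cannot be told apart from Sox1 here. Col4a1, Col4a2, Col5a1, Col9a1, Col9a3, Col23a1 and Col28a1 were higher, Col4a4, Col18a1 and Col20a1 were lower, and Col1a1 and Col3a1 did not pass the test. In the fit of 4 groups the share of collagens called was no larger than that of all genes in either direction. Of the 41 collagen genes that passed the filter on low counts (not Col4a3, Col6a6 or Col19a1), 7 were higher in Sox1posGP at an adjusted p under 0.1, against 21.6% of 17003 genes tested, and 3 were lower, against 22.7%. The median log2 fold change of the 41 was 0.45, beside 0 over all genes, and 10 of the 41 were at the floor in both groups. The libraries of the groups did not overlap for 13 genes that were higher, against 25.7% of all genes, and 5 that were lower, against 27.1%. Many passed the filter through NSC and NR alone, and 22 passed it in a fit of Baseline and Sox1posGP alone, where 11 were higher and 2 lower. The share called among the 12045 genes of that fit was not computed, so these counts cannot be set against all genes.

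Col4a1, which with Col4a2 makes the common type IV trimer, stood at 21.8, 27.4 and 26.5 CPM in Baseline and 117, 140.5 and 120.4 CPM in Sox1posGP. Every Sox1posGP library was above every Baseline library, by 5.07-fold in the fit (log2 fold change 2.34, standard error 0.14, adjusted p = 2.56e-08). Col4a2 stood at 3.16, 5.3 and 8.97 CPM and 17.1, 17 and 19.2 CPM, also without overlap (log2 fold change 1.81, standard error 0.30, adjusted p = 3.26e-04). Of the other type IV chains, Col4a5 stood at 11.7, 12.8 and 15.4 CPM and 18.2, 16.8 and 18.9 CPM, apart but short of the threshold (log2 fold change 0.45, adjusted p = 0.212), which it passed in the fit of these groups alone (0.00362) and without NR replicate 2 (0.0155). Col4a4, a chain of the trimer of kidney and other specialised membranes, fell from 1.25, 2.51 and 3.76 CPM to 0.579, 0.628 and 0.834 CPM with no overlap (log2 fold change -1.73, standard error 0.54, adjusted p = 0.0221), on counts of 21, 18 and 18 and 2, 4 and 5. Col18a1, whose C-terminal piece is endostatin, stood at 5.37, 5.16 and 4.59 CPM and 3.76, 2.83 and 4.34 CPM and was called lower (log2 fold change -0.51, adjusted p = 0.0495). That call ended without Baseline replicate 1 (adjusted p = 0.234), without Sox1posGP replicate 1 (0.101) and without Sox1posGP replicate 2 (0.339).

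Among fibrillar genes Col5a1 alone passed. This chain of type V collagen, which helps to set the width of fibrils, stood at 13.7, 14.9 and 12.5 CPM in Baseline and 37.6, 45.4 and 45 CPM in Sox1posGP without overlap (log2 fold change 1.64, standard error 0.28, adjusted p = 3.61e-04). Its partner Col5a2 stood at 0.597, 0.418 and 0.417 CPM and 0.289, 0.628 and 0.5 CPM, at or near the floor in both. Col3a1 of type III collagen stood at 6.98, 10.3 and 7.1 CPM and 13, 16.8 and 21.5 CPM, with no overlap, but did not pass (log2 fold change 1.12, standard error 0.65, adjusted p = 0.201). It passed in the fit of these groups alone (adjusted p = 8.34e-06), with no filter (1.28e-12), with the replicate block (0.0644) and in DESeq2 (0.092). It also passed without NSC replicate 2 (0.0675) and without replicate 2 of both NSC and NR (3.61e-04). The fit of 4 groups shares 1 estimate of the spread. Col1a1, the main chain of type I collagen, stood at 8.59, 8.79 and 7.51 CPM and 7.24, 7.54 and 9.01 CPM, and the groups overlapped. The other fibrillar genes had log2 fold changes from -0.65 for Col27a1 to 0.25 for Col1a2 among those above the floor.

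In the other classes the largest rise was that of Col23a1, a transmembrane collagen, at 0.179, 0.558 and 0.209 CPM in Baseline and 3.19, 2.51 and 3.67 CPM in Sox1posGP (log2 fold change 3.42, standard error 0.56, adjusted p = 2.75e-04). Its counts were 3, 4 and 1 and 11, 16 and 22, so that the groups did not overlap but the fold rests on few reads. Col28a1, a collagen known from nerve, stood at 5.25, 8.23 and 5.63 CPM and 11.6, 13.3 and 14.8 CPM, also apart (log2 fold change 1.07, standard error 0.33, adjusted p = 0.021). Of the type IX chains, which coat cartilage fibrils, Col9a3 stood at 8.35, 8.23 and 8.35 CPM and 13.6, 14.4 and 16.9 CPM (log2 fold change 0.85, adjusted p = 0.0284) and Col9a1 at 0.537, 0.418 and 1.04 CPM and 2.03, 2.67 and 1.501 CPM (log2 fold change 1.78, adjusted p = 0.0489). Neither overlapped between groups, but the call of Col9a3 ended without Sox1posGP replicate 3 (adjusted p = 0.105), and that of Col9a1 without Baseline replicate 1 (0.168), Baseline replicate 2 (0.126) or Sox1posGP replicate 2 (0.193). Col20a1, a fibril-associated collagen, had the largest called fall, from 9.31, 9.21 and 9.6 CPM to 1.74, 1.1 and 1.67 CPM (log2 fold change -2.67, standard error 0.29, adjusted p = 8.28e-06). All Baseline libraries lay above all Sox1posGP libraries, by 6.35-fold. Col6a1, a beaded filament chain, stood at 2.81, 2.93 and 2.5 CPM and 6.08, 8.16 and 8.17 CPM, apart but short of the threshold (log2 fold change 1.46, adjusted p = 0.295). It passed in the fit of these groups alone (adjusted p = 3.26e-06), with no filter (2.84e-11), with the replicate block (0.0304) and without replicate 2 of both NSC and NR (1.29e-05). With a fold over 4 required as well, Col4a1 and Col23a1 were higher, against 3.87% of all genes, and Col20a1 was lower, against 1.92%.

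**Figure D4:**
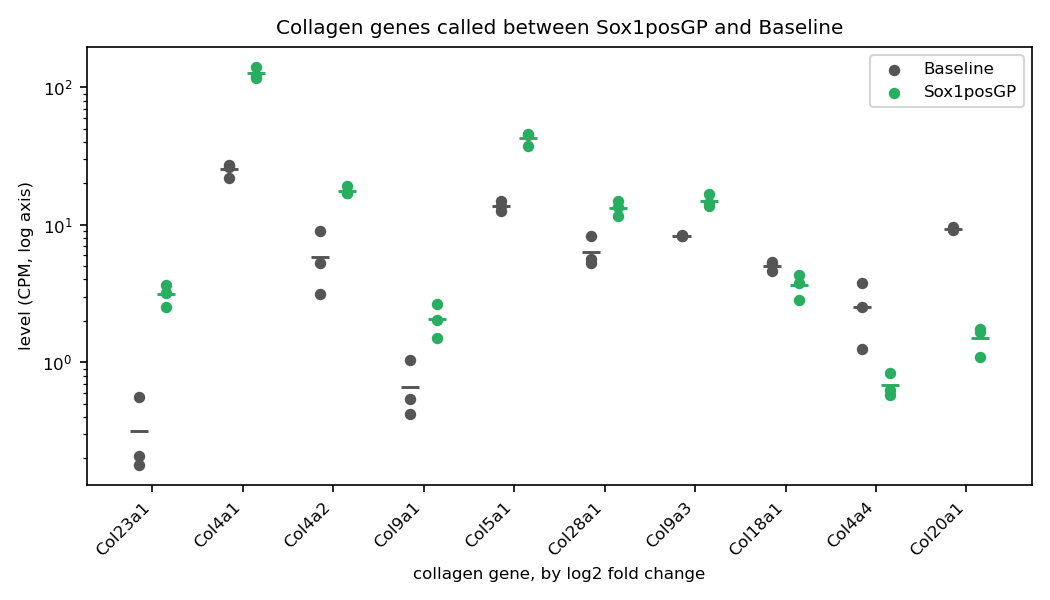
Level of the 10 collagen genes called between Sox1posGP and Baseline (horizontal, from the largest rise to the largest fall) in each library (vertical, CPM on a log axis), grey for Baseline and green for Sox1posGP, with 1 point per library and a bar at the mean of 3. The libraries of the groups did not overlap for any of the 10, and Col4a1 reached 117 to 140.5 CPM in Sox1posGP against 21.8 to 27.4 CPM.

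The libraries labelled NSC and NR were compared with Baseline to place early neural stem cells beside NPCs. Most collagen genes were higher in both, Col18a1 by 109.7-fold and 139-fold and Col3a1 by 140.3-fold and 216-fold, and few that NPCs express were lower. In NSC 36 of 41 were higher, against 42.7% of all genes, and 4 were lower, against 32.5%. In NR 35 were higher, against 44.2%, and 3 were lower, against 32.8%. Groups did not overlap for 31 higher genes (43.8% of all genes) and 4 lower (33.5%) in NSC, and for 35 higher (44.4%) and 4 lower (33.4%) in NR. With a fold over 4 as well, 27 were higher (19.1%) and 2 lower (5.89%) in NSC, and 31 higher (22.0%) and 3 lower (6.02%) in NR. The median log2 fold change of the 41 was 3.87 in NSC and 4.90 in NR, beside 0.20 and 0.19 over all genes. With the 10 genes at the floor in Baseline placed at their count ratio or bound, the medians were 3.87 and 4.83. Genes at the floor in Baseline passed the filter only through the groups where they were high, so that their direction was given by that choice. Both comparisons share the 3 Baseline libraries. After thinning all libraries to 3407066 counts, 28 of the 33 genes tested were higher and 3 lower in NSC, and 27 and 2 in NR. Shares over all genes were not computed after thinning.

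All 11 fibrillar genes were higher in NSC and in NR, with a median log2 fold change of 6.31 and 6.72, or 3.35 and 3.38 with Col24a1 at its bound. Col3a1 stood at 1517, 381 and 1479 CPM in NSC and 2728, 785 and 1701 CPM in NR (log2 fold changes 7.13, standard error 0.62, and 7.76, standard error 0.63). Type I collagen, the main protein of bone, skin and tendon, gave 1084, 381 and 1080 CPM in NSC and 2985, 413 and 2125 CPM in NR for its chain Col1a1 (6.66 and 7.78 on the log2 scale). For Col1a2 the levels were 3.34, 2.37 and 3.13 CPM in Baseline, 3.76, 2.2 and 5 CPM in Sox1posGP, 603, 129 and 603 CPM in NSC and 1471, 136 and 978 CPM in NR (7.20 and 8.15). In these genes the lowest NSC or NR library, replicate 2 each time, was still more than 10 times above every Baseline library. Col2a1, the fibrillar collagen of cartilage and notochord, stood at 3.16, 2.37 and 4.8 CPM in Baseline, 2.32, 3.14 and 3.17 CPM in Sox1posGP, 299.7, 366 and 324 CPM in NSC and 236, 584 and 216 CPM in NR, so that replicate 2 was the highest library of each group (log2 fold changes 6.65 and 6.72).

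Of the type V chains, Col5a1 in NSC and NR stood at 189.6, 80.7 and 151 CPM and 173, 119 and 139 CPM (log2 fold changes 3.35 and 3.38) and Col5a2 at 109.9, 105 and 100.5 CPM and 125, 84.4 and 100.9 CPM. For Col5a2 the fold rests on 10, 3 and 2 counts in Baseline (log2 fold changes 7.64, standard error 0.22, and 7.62, standard error 0.22). Col5a3 stood at 5.43, 5.72 and 5.01 CPM in Baseline, 4.63, 5.81 and 7.67 CPM in Sox1posGP, 34.5, 4.45 and 25.8 CPM in NSC and 25.2, 4.1 and 20.01 CPM in NR. Replicate 2 of both groups was below all Baseline libraries, and the log2 fold changes were 2.00 (adjusted p = 0.0171) and 1.59 (adjusted p = 0.0484). The call in NR ended without NR replicate 1 (adjusted p = 0.165), NR replicate 3 (0.113), or Baseline replicate 1 (0.1251), 2 (0.103) or 3 (0.1002). Col11a1, a type XI chain, stood at 7.4, 10.1 and 10.6 CPM in Baseline, 10.4, 10.5 and 11.5 CPM in Sox1posGP, 46.1, 25.2 and 34 CPM in NSC and 59.9, 31.1 and 48.5 CPM in NR, with log2 fold changes of 1.95 and 2.35. Its partner Col11a2 was low throughout, at 1.07, 1.53 and 2.3 CPM, 1.45, 1.1 and 2 CPM, 3.04, 3.18 and 4.21 CPM and 3.14, 5.52 and 3.34 CPM in the same order (log2 fold changes 1.20 and 1.42). Col27a1, at 1.95 to 4.17 CPM in Baseline, 6.84 to 9.13 CPM in NSC and 4.5 to 6.71 CPM in NR, rose by 1.50 and 1.02 on the log2 scale. Col24a1 had no count in Baseline, stood at 0.207 to 0.738 CPM in NSC and 0.226 to 1.42 CPM in NR, and was at least 1.2-fold higher in NSC and at least 2.49-fold higher in NR against a floor of 3 counts per library, with its call in NSC ending without Baseline replicate 1 (raw p above 0.05, adjusted p = 0.0903). Adjusted p reached at most 0.0175 over the 11 genes in NSC and 0.0484 in NR.

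Of the 7 basement membrane genes tested, 6 were higher and Col4a4 was lower in each group. Col18a1 stood at 558, 599 and 537 CPM in NSC and 783, 722 and 639 CPM in NR, far above every Baseline library (log2 fold changes 6.78, standard error 0.13, and 7.12, standard error 0.13). Col4a1 stood at 384, 366 and 340.4 CPM and 257, 317 and 232 CPM (3.87 and 3.43), and Col4a2 at 206, 202 and 183 CPM and 129.6, 177 and 107 CPM (5.28 and 4.76). In both genes every NSC and NR library was above every Sox1posGP library, which in turn was above every Baseline library. Col4a5 stood at 51.9, 51.4 and 46.9 CPM in NSC and 19, 41.7 and 21 CPM in NR (log2 fold changes 1.93 and 1.06). Its partner Col4a6 was at the floor in NPCs, with 2, 1 and 0 counts in Baseline and 1, 2 and 1 in Sox1posGP, and stood at 11.6, 13.2 and 9.17 CPM in NSC and 2.52, 10.6 and 3.43 CPM in NR, where replicate 2 was highest. Its ratio to Baseline was 108 (95% counting interval 36.8 to 524) in NSC and 56.8 (95% counting interval 19.3 to 276) in NR. Col15a1 was also at the floor in NPCs and reached 1.07 to 2.89 CPM in NSC and 1.1 to 1.8 CPM in NR. Col4a4 fell to 0.626, 0.483 and 0.945 CPM in NSC and 0.369, 0.226 and 0.478 CPM in NR, below every Baseline library (log2 fold changes -1.74, adjusted p = 0.00195, and -2.66, adjusted p = 1.19e-04). Col4a3 was not tested and stayed under 2 CPM in every library.

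Type VI collagen, which forms beaded filaments around cells, was higher in both groups for its main chains. Col6a1 stood at 304, 64.2 and 309 CPM in NSC and 371, 63.7 and 277 CPM in NR (log2 fold changes 6.34 and 6.41). For Col6a2 the levels were 1.07, 1.12 and 2.71 CPM in Baseline, 1.45, 2.04 and 2.17 CPM in Sox1posGP, 205, 35.6 and 206 CPM in NSC and 244, 38.9 and 183 CPM in NR (6.73 and 6.79). For Col6a3 they were 0.358, 0.837 and 1.04 CPM, 0.579, 0.157 and 1 CPM, 131, 7.7 and 86.4 CPM and 87.8, 10.5 and 71.1 CPM (6.94 and 6.52). Replicate 2 was the lowest library of both groups for all 3 chains, and it remained above Baseline. Col6a5, a rarer chain, had 1, 0 and 0 counts in Baseline and none in Sox1posGP, and stood at 1.01, 0.898 and 0.518 CPM in NSC and 10.2, 7.26 and 7.05 CPM in NR, with a ratio to Baseline of 23.7 (95% counting interval 4.15 to 948) and 223 (95% counting interval 39.8 to 8805). Col6a4 reached 0.274 to 0.582 CPM in NSC and 3.01 to 4.13 CPM in NR. Its call in NSC (adjusted p = 0.0622) ended without NSC replicate 1 (0.183), without Baseline replicate 1 (0.338) or 2 (0.172), and without any 1 of the NR libraries, where raw p passed 0.05 at adjusted p of 0.0697 to 0.0803. Col6a6 was not tested and stayed under 0.5 CPM.

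Of 8 fibril-associated genes tested, 6 were higher in each group. Col22a1, known from the junction of muscle and tendon, had 0, 0 and 1 counts in Baseline and 2, 0 and 2 in Sox1posGP and stood at 22.6, 27.6 and 23.2 CPM in NSC and 10.3, 30.8 and 9.81 CPM in NR. Its ratio to Baseline was 692 (95% counting interval 124 to 27360) in NSC and 510.4 (95% counting interval 91.5 to 20170) in NR, resting on 1 count. Col12a1 stood at 0.895, 1.4 and 2.09 CPM in Baseline, 2.32, 1.73 and 2.83 CPM in Sox1posGP, 23.2, 7.63 and 15.4 CPM in NSC and 36.2, 11.8 and 23.4 CPM in NR (log2 fold changes 3.58 and 4.19). Col16a1 stood at 2.92, 4.74 and 4.38 CPM, 7.82, 5.65 and 9.67 CPM, 35.4, 5.46 and 33.8 CPM and 49.8, 5.81 and 32.6 CPM in the same order (2.70 and 2.93), and its replicate 2 lay only just above Baseline. Col14a1 stood at 0.835, 0.977 and 0.835 CPM, 0.289, 0.628 and 0.167 CPM, 8.14, 0.725 and 7.89 CPM and 7.33, 1.52 and 5.17 CPM, so that replicate 2 of NSC was below Baseline (2.67 and 2.38), and the call in NR ended without Baseline replicate 1 (raw p above 0.05, adjusted p = 0.0804). Col9a2 stood at 1.61, 1.26 and 0.626 CPM, 2.9, 2.2 and 1.67 CPM, 7.99, 6.18 and 8.53 CPM and 42.4, 37.3 and 32.9 CPM (2.53 and 4.83), with no overlap between any of Baseline, NSC and NR. Col9a1 stood at 2.3, 1.66 and 2.38 CPM in NSC and 17.7, 40.2 and 12.3 CPM in NR (1.80 and 5.27), its call in NSC ending without Baseline replicate 1 (raw p above 0.05, adjusted p = 0.075). Col19a1 was not tested and stood at 0.061 to 0.138 CPM in NSC and 0.0616 to 0.323 CPM in NR.

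Transmembrane, short-chain and remaining collagens were mostly rare. Col23a1, already higher in Sox1posGP, stood at 18.8, 8.63 and 17.6 CPM in NSC and 13.2, 17.9 and 13.2 CPM in NR (log2 fold changes 5.70, standard error 0.45, and 5.67, standard error 0.45). The other transmembrane genes, Col13a1, Col17a1 and Col25a1, were called higher in both groups and stayed under 5 CPM in every library. Col17a1 had 1, 0 and 0 counts in Baseline and none in Sox1posGP, so that its direction was given by the filter. Its ratio to Baseline was 20 (95% counting interval 3.47 to 799) in NSC and 49.6 (95% counting interval 8.76 to 1972) in NR. Col25a1 had 6, 0 and 1 counts in Baseline. The call of Col13a1 in NSC (adjusted p = 0.0621) ended without NSC replicate 1 (0.108) or 3 (0.172), Baseline replicate 1 (0.146) or 2 (0.2), NR replicate 2 (0.0683) or Sox1posGP replicate 1 (0.0783), the last 2 at a raw p above 0.05. Col8a1, a short-chain collagen of vessels and the eye, had 2, 2 and 0 counts in Baseline and 0, 1 and 3 in Sox1posGP and stood at 29.4, 21.4 and 29.3 CPM in NSC and 78.5, 18 and 55.9 CPM in NR, a ratio to Baseline of 195 (95% counting interval 76.1 to 716) and 331 (95% counting interval 129 to 1217). Its partner Col8a2 had 1, 3 and 0 and 0, 0 and 0 counts and stood at 11.1, 14.2 and 13.7 CPM and 30.4, 21.3 and 21.3 CPM (91.3 (95% counting interval 35.6 to 336) and 166 (95% counting interval 64.7 to 609.5)). Col26a1 had 4, 1 and 0 and 0, 1 and 0 counts and stood at 20.2, 10.5 and 23.1 CPM and 42, 28.3 and 36.1 CPM (log2 fold changes 6.66 and 7.63). These 3 genes did not overlap between NPCs and the other groups. Col10a1, the collagen of hypertrophic cartilage, stood at 0.0691 to 0.828 CPM in NSC and 0.0323 to 1.72 CPM in NR and had adjusted p of 0.0959 in NSC and 0.0763 in NR but raw p above 0.05 and was not called, though without NSC replicate 2 it passed in both (0.0383 and 0.0514) and without NR replicate 2 likewise (0.0411 and 0.0129). Col7a1, the anchoring fibril collagen of skin, at 2.69 to 3.76 CPM in Baseline and 3.42 to 7.99 CPM in NSC, was called in NSC (log2 fold change 0.88, adjusted p = 0.0171), and not without NSC replicate 1 (0.114) or Baseline replicate 1 (raw p above 0.05, adjusted p = 0.0917).

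The genes that were lower in NSC and NR than in Baseline were Col20a1, Col28a1 and Col4a4 in both and Col9a3 in NSC. Col20a1 stood at 0.85, 0.76 and 0.914 CPM in NSC and 1.6, 1.84 and 1.12 CPM in NR, below every Baseline library by 11-fold and 6.17-fold (adjusted p = 3.00e-08 and 3.19e-07). Col28a1 stood at 0.649, 0.414 and 1.16 CPM in NSC and 0.493, 0.194 and 0.45 CPM in NR, lower by 8.47-fold and 17-fold (adjusted p = 3.66e-06 and 5.80e-07). Where Col20a1 was low in Sox1posGP as in NSC and NR, Col28a1 was higher in Sox1posGP than in Baseline. Col9a3 stood at 2.75, 1.35 and 3.29 CPM in NSC (log2 fold change -1.74, adjusted p = 7.88e-05) and 6.4, 7.68 and 4.75 CPM in NR, where it was below every Baseline library and did not pass (-0.41, adjusted p = 0.191). It passed in NR without NSC replicate 2 (0.0616) and without replicate 2 of both NSC and NR (0.00562). Of its exon bases 6.07% overlap Tcfl5 on the opposite strand, and the strand setting of the counting is not given.

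Next, the libraries labelled NR were compared with those labelled NSC. Col4a1, Col4a2, Col4a5 and Col4a6 were lower in NR, while Col9a1, Col9a2, Col9a3, Col6a4, Col6a5 and Col18a1 were among those higher. Of 41 genes 13 were higher, against 29.5% of all genes, and 5 were lower, against 25.8%. The median log2 fold change was 0.21, beside 0.01 over all genes. Groups did not overlap for 11 higher genes (30.0% of all genes) and 5 lower (26.6%), and 4 were higher with a fold over 4 (7.34%) and 0 lower (0.118%). Replicate 2 of NR and replicate 2 of NSC deviated together, while numbers 1 and 3 gave no clear match. The labels do not say that same-numbered libraries were made together. A replicate block in the fit gave 17 higher and 8 lower, with no call lost. Gained were Col1a2 (adjusted p = 0.0165), Col3a1 (0.0854), Col12a1 (0.0272) and Col24a1 (0.0437) higher, and Col4a4 (0.0338), Col22a1 (0.0372) and Col25a1 (0.0829) lower. Without NSC replicate 2 the lower count was 9, and without replicate 2 of both groups 17 genes were higher and 13 lower.

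Of 5 type IV genes tested, 4 were lower in NR, and Col4a4 did not pass (log2 fold change -0.92, adjusted p = 0.0994, raw p above 0.05). The differences were small for Col4a1 (log2 fold change -0.44, standard error 0.12, adjusted p = 0.00703) and Col4a2 (-0.51, standard error 0.20, adjusted p = 0.045), whose libraries did not overlap between the groups. The call of Col4a2 ended without NR replicate 3 (adjusted p = 0.175). Col4a5 fell by more (log2 fold change -0.87, standard error 0.22, adjusted p = 0.00555), with NR replicate 2 nearest to NSC. For Col4a6 (-1.01, adjusted p = 0.0457) the groups overlapped at NR replicate 2, and the call ended without NR replicate 1 (0.137), NR replicate 3 (0.166) or NSC replicate 2 (raw p above 0.05, adjusted p = 0.0914). Col18a1 moved the other way, with every NR library above every NSC library (0.34, standard error 0.09, adjusted p = 0.00789). With the type IV chains alone as the basement membrane class the median log2 fold change was -0.87, and with Col15a1 and Col18a1 it was -0.51.

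The largest differences were in chains of types IX and VI. Col9a1 was 11-fold higher in NR (log2 fold change 3.46, standard error 0.38, adjusted p = 1.40e-05), Col9a2 4.94-fold (2.31, 0.19, 1.56e-06) and Col9a3 2.52-fold (1.34, 0.27, 0.00116), none with overlap. Col6a5 was 9.94-fold higher (3.31, 0.31, 1.03e-05) and Col6a4 8.6-fold (3.10, 0.42, 1.04e-04), while the main chains Col6a1 and Col6a2 had log2 fold changes of 0.07 and 0.06 and did not pass. Markers of pluripotent cells moved in the same direction in all 6 cases, and their part in the difference of these collagens was not tested. Further genes called higher were Col13a1 (1.80), Col17a1 (1.27), Col26a1 (0.98), Col8a2 (0.91), Col20a1 (0.84), Col8a1 (0.92) and Col1a1 (1.12). Adjusted p was 0.0812 for Col1a1 and 0.0507 for Col8a1. The call of Col8a1 ended without NSC replicate 2 (0.1248), NR replicate 1 (0.297) or NR replicate 3 (0.122), and that of Col1a1 without NSC replicate 2 (0.219), NR replicate 1 (0.376), NR replicate 3 (0.168) and any 1 Baseline or Sox1posGP library (0.1 to 0.113). Col28a1 was lower (-1.01, adjusted p = 0.0608), and not without NSC replicate 3 (0.278) or NR replicate 2 (0.214). Col1a2 (0.95, adjusted p = 0.226) and Col3a1 (0.63, adjusted p = 0.26) did not pass without the block. They passed with no filter (3.20e-14 and 3.00e-06), without NR replicate 2 (0.00922 and 0.05) and without replicate 2 of both groups (4.67e-06 and 0.00489).

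**Figure D5:**
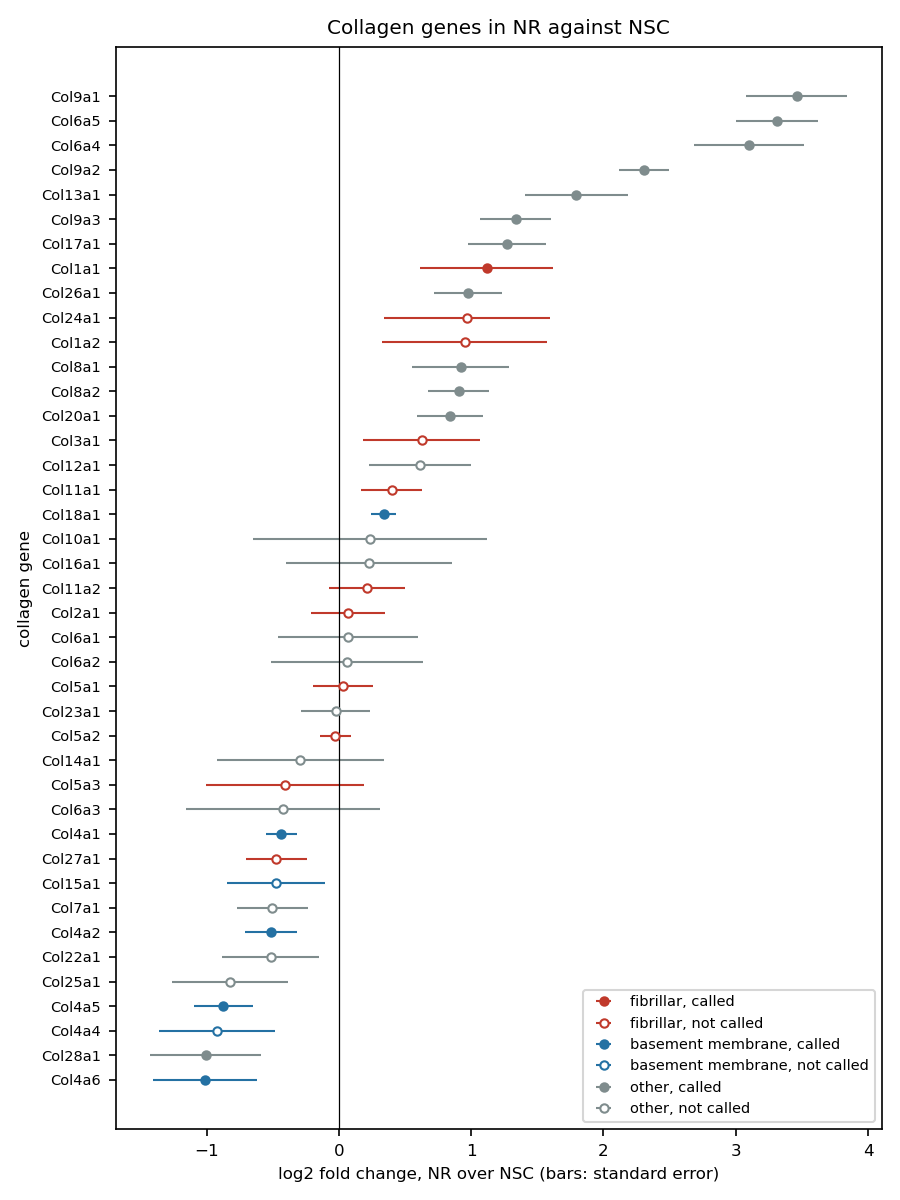
Log2 fold change of NR over NSC (horizontal, bars are standard errors) for the 41 tested collagen genes (vertical, sorted), coloured by class and filled where called. Col9a1, Col6a5 and Col6a4 lie above 3, the filled basement membrane points other than Col18a1 lie below 0, and most fibrillar points are open.

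Chains that assemble together were compared as ratios within a library. Per kilobase, Col4a1 over Col4a2 was 4.88 ± 1.93 (SD, n = 3) in Baseline, 6.96 ± 1.01 in Sox1posGP, 1.8 ± 0.0249 in NSC and 1.93 ± 0.186 in NR, and the trimer holds 2 and 1 of them. Col5a1 over Col5a2 was 23.3 ± 5, 76.8 ± 23.3, 1.05 ± 0.395 and 1.1 ± 0.0117 in the same order. Col5a2 in NPCs had 10, 3 and 2 counts in Baseline and 1, 4 and 3 in Sox1posGP, at or near the floor. Col1a1 over Col1a2 was 2.61 ± 0.64, 2.15 ± 0.818, 1.97 ± 0.601 and 2.18 ± 0.497, so that this ratio overlapped between all groups, and replicate 2 was highest in each. For type IX, Col9a3 over Col9a2 was 8.02 ± 4.19 and 6.84 ± 2.63 in NPCs and 0.303 ± 0.084 and 0.161 ± 0.0325 in NSC and NR, a reversal of the more abundant chain. Col9a1 over Col9a2 was 0.593 ± 0.587, 0.715 ± 0.198, 0.212 ± 0.00776 and 0.475 ± 0.301 over the 4 groups. Col6a1 over Col6a2 was 1.98 ± 0.943, 3.84 ± 0.208, 1.54 ± 0.173 and 1.498 ± 0.0679, and Col6a3 over Col6a2 was 0.191 ± 0.0888, 0.122 ± 0.0807, 0.166 ± 0.0826 and 0.132 ± 0.0242, with 6, 6 and 5 and 2, 1 and 6 counts of Col6a3 in Baseline and Sox1posGP. Col11a1 over Col11a2 was 4.24 ± 0.854, 5.28 ± 1.36, 7.31 ± 2.9 and 9.19 ± 4.8. Col4a5 over Col4a6 was 4.58 ± 0.611 in NSC and 5.96 ± 1.83 in NR, and Col4a6 was at the floor in NPCs. These ratios were not tested.

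Genes that make and remodel collagen were counted in the same way. Over all genes 21.6% were higher and 22.7% lower in Sox1posGP than in Baseline, 42.7% and 32.5% in NSC and 44.2% and 32.8% in NR. Of 12 genes of procollagen processing and crosslinking, 2 were higher and none lower in Sox1posGP than in Baseline, against 10 higher and 1 lower in NSC and 11 and 0 in NR. Tll1, Adamts3, Loxl1 and Loxl2 had at most 3 counts in every Baseline library. They passed the filter through the groups where they were high, so that their direction was given by that choice. The same holds for genes at the floor in Baseline in the lists below, as for P4ha3. Pcolce, an enhancer of C-propeptide cleavage, stood at 7.04, 6.42 and 5.22 CPM in Baseline, 29.8, 29.7 and 28.9 CPM in Sox1posGP, 78, 36 and 76.1 CPM in NSC and 168, 52.4 and 135 CPM in NR, and was called in Sox1posGP (log2 fold change 2.19, standard error 0.44, adjusted p = 0.00135). Adamts2, the N-propeptidase, was the other at 0.477, 0.279 and 0.417 CPM and 1.74, 1.88 and 1.83 CPM (2.13, adjusted p = 0.0925), a call that ended without any 1 library of either group (0.133 to 0.183). Lox, which starts crosslinks, was at 0.239, 0.14 and 0.417 CPM in Baseline and 0, 0.314 and 0.167 CPM in Sox1posGP, and at 33.1, 16.4 and 33.6 CPM in NSC and 100.1, 23.3 and 67.7 CPM in NR (log2 fold changes 6.79 and 7.98).

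Of 7 genes of folding and export, 2 were higher and 3 lower in Sox1posGP, and 4 and 3 in both NSC and NR. Serpinh1, the collagen chaperone Hsp47, stood at 1354, 1422 and 1455 CPM in Baseline, 686, 796 and 805 CPM in Sox1posGP, 326, 379 and 284 CPM in NSC and 485, 372 and 418 CPM in NR, highest in Baseline, with log2 fold changes against Baseline of -0.89 (adjusted p = 5.04e-05), -2.10 and -1.73. Fkbp10, another chaperone, fell from 145, 128 and 124 CPM to 55, 49.9 and 56.2 CPM in Sox1posGP (-1.30, adjusted p = 2.88e-04). Sparc, a collagen-binding protein, rose from 125, 104 and 111 CPM to 205, 201 and 224 CPM (0.89, adjusted p = 5.22e-04). Of 14 genes of prolyl and lysyl modification, 3 were higher and 1 lower in Sox1posGP, 4 and 7 in NSC and 4 and 5 in NR. Plod1, a lysyl hydroxylase, was the one lower in Sox1posGP, from 100.6, 104 and 96.4 CPM to 64.6, 63.3 and 63 CPM (-0.66, adjusted p = 2.51e-04). P4ha2, a subunit of prolyl hydroxylase, stood at 0.597, 0.698 and 0 CPM in Baseline, 0.869, 0.942 and 1.501 CPM in Sox1posGP, 18.5, 19.1 and 19.9 CPM in NSC and 31.2, 32.3 and 25.6 CPM in NR (log2 fold changes 5.21 and 5.84). Its call in Sox1posGP (1.13, adjusted p = 0.0813) ended without Baseline replicate 1 (0.104) or 3 (0.192) or Sox1posGP replicate 2 (0.108) or 3 (0.355), with the replicate block (0.105), with no filter (0.121) and after thinning (0.165).

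Of 6 collagen receptors tested, 1 was higher and 1 lower in Sox1posGP, and 2 and 1 in NSC and in NR. Ddr2, a receptor tyrosine kinase for fibrillar collagen, fell from 400.3, 445 and 396 CPM in Baseline to 35.9, 36.6 and 35.5 CPM in Sox1posGP (11.5-fold, adjusted p = 2.00e-06), and stood at 27.4, 9.84 and 23.1 CPM in NSC and 52.3, 24.8 and 39.4 CPM in NR (log2 fold changes -4.36 and -3.42). Ddr1, which also binds type IV collagen, rose from 50.3, 56.2 and 49.5 CPM to 85.4, 103 and 84.6 CPM in Sox1posGP (0.81, adjusted p = 0.00189). Neither gene overlapped between those groups. Of 4 proteases tested that cleave collagen, 2 were higher in Sox1posGP and 4 in NSC and in NR, none lower. Mmp14, a membrane-bound protease, stood at 1.19, 1.81 and 1.25 CPM in Baseline, 10.1, 12.2 and 9.67 CPM in Sox1posGP, 187, 108 and 198 CPM in NSC and 169, 116 and 139 CPM in NR (log2 fold changes 2.97, adjusted p = 3.39e-05, then 6.90 and 6.68). Of NR against NSC, 6 of the 7 folding and export genes were higher and 1 was lower, and of the 12 processing genes 5 were higher and 2 lower. Over all genes 29.5% were higher and 25.8% lower in NR than in NSC.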

How the data were processed

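RNA of 12 libraries, 3 per group, had been amplified with SMART-Seq v4. The submitters' notes name STAR 2.6, RSEM 1.1.14 and the build mm10, with no role or order. The authors deposited whole-number counts per gene, without normalization, for 45706 Ensembl genes. The annotation, strand setting and read filters are not given in the sources used here, nor whether estimates were rounded. Groups came from the labels. Symbols, positions and coding sequences came from GENCODE M21 for GRCm38 and promoters from RefSeq. No symbol was found for 563 genes, with 0.124% of all counts.

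Counts were scaled by TMM, filtered by filterByExpr over the 4 groups and fitted with glmQLFit and glmQLFTest (edgeR 4.0.16, limma 3.58.1, R 4.3.3) over all 12 libraries without a block, which left 8 residual degrees of freedom. P-values were adjusted over 17003 genes, and a gene was called at adjusted p under 0.1 and p under 0.05. The study also required a fold over 4, given here as an alternative. Standard errors were the log2 fold change over the square root of F. A floor of 3 counts per library was used, which was 0.179 to 0.626 CPM in Baseline, 0.471 to 0.869 in Sox1posGP, 0.0671 to 0.104 in NSC and 0.0843 to 0.185 in NR. A group with 1 to 3 counts in its highest library is given by a count ratio with an exact interval. For it, counts were pooled over the 3 libraries of each group and divided by their summed TMM-scaled sizes. This differs from the ratio of mean CPM. Intervals and the floor cover counting error only. Pairs of replicates differed by more than counting noise (chi-square per degree of freedom 1.54 to 49). The samples of a group are stated to be biologically independent, made on different days, and in the study clonal lines could differ between replicates. The members and gene lists were chosen with earlier results of these data known. Named with all values are genes called with a fold over 4 and a group mean of at least 5 CPM, chains that assemble together, and pathway genes that were called with the largest folds. Serpinh1, Adamts2, Dcn, Lum, Acta2, Zfp42 and the collagens named without a call were chosen after their values were seen.

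Replicate 2 of NR and replicate 2 of NSC had deviations from their group means that correlated at 0.490. Same-numbered replicates 1 and 3 correlated at 0.229 and 0.296. Across numbers, NR 1 with NSC 3 gave 0.186 and NR 3 with NSC 1 gave 0.301. Replicate 2 thus stood apart in both groups, and numbers 1 and 3 gave no clear match. The replicate block is given beside the comparison of NR with NSC. In the others same-numbered correlations lay between -0.0472 and 0.0475, and the numbers were taken as names. The calls were tested on simulated data in which genes changed in Sox1posGP alone and no replicate was set apart. That simulation does not cover the calls in NSC or NR, and its outcome is not given here. Alternatives were DESeq2 1.42.0 (Wald test), its size factors, scaling by the upper quartile, other filters and thresholds, the block, a fit per pair of groups, thinning and leaving out each library. Leaving out replicate 2 of both NSC and NR was added after seeing the data. Tables and figures used Python 3.11.15, pandas 2.3.3, numpy 2.4.6 and matplotlib 3.10.9.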

Additional observations from a re-analysis of the deposited data

How the results depend on the processing

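Counts are given as collagen genes higher and lower. Shares of all genes called were computed for the main fit only. In Sox1posGP against Baseline (7 and 3) they were 12 higher with no filter, 4 and 1 with at least 10 counts in every library, 11 higher in the fit of 2 groups, 11 higher without replicate 2 of both NSC and NR, and 2 and 1 at a fold over 4. In NSC against Baseline (36 and 4) they were 12 and 1 with at least 10 counts, and 2 lower at a fold over 4. In NR against Baseline (35 and 3) they were 12 and 0 with at least 10 counts. In NR against NSC (13 and 5) they were 3 and 3 with at least 10 counts, 11 lower with no filter, 8 lower with the replicate block, 3 lower after thinning, 13 lower without replicate 2 of both, and 4 and 0 at a fold over 4. The filter of 10 counts left 13 collagen genes to test.

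Leaving out 1 library gave 6 to 9 higher and 2 to 4 lower in Sox1posGP, 31 to 37 and 4 to 5 in NSC, 33 to 36 and 3 to 4 in NR, and 11 to 18 and 4 to 9 in NR against NSC. The pairing by replicate number gave 10 and 3, 37 and 4, and 36 and 3 in the comparisons with Baseline. The type IV chains alone had medians of 1.24, 3.87, 3.43 and -0.87. Over alternative scalings the median of all genes lay at 0.24 to 0.28 in NSC and NR against Baseline, and no call changed direction. Uncalled differences near 0 in NR against NSC did, with log2 fold changes of -0.0248 for Col6a1 and -0.0327 for Col6a2 with no filter, and from -0.41 to 0.52 for Col6a1 and from -0.43 to 0.52 for Col6a2 when 1 library was left out. Calls of named collagens also ended in the fit of 2 groups (Col18a1 in Sox1posGP, Col13a1 in NSC, and Col1a1, Col28a1, Col4a6 and Col8a1 in NR against NSC), after thinning (Col18a1 in Sox1posGP, Col7a1 and Col9a1 in NSC, Col5a3 and Col14a1 in NR, and Col20a1, Col28a1 and Col4a6 in NR against NSC), in DESeq2 (Col18a1, Col6a4, Col1a1 and Col8a1) and without replicate 2 of both (Col20a1 in NR against NSC). The cause was not tested. Libraries of Baseline and Sox1posGP were mostly smaller than those of NSC and NR. In Baseline and Sox1posGP 12 and 14 genes were at the floor, and the part of depth in this was not tested.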
